A study of Homo sapiens with 16 samples.

Results

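Plasmacytoid dendritic cells (pDC) were described here from droplet single-cell RNA sequencing of mouse mammary tumors. The cells were those carrying the deposited cluster name pDC, and 341 of 48824 cells met this rule, 170 in the long-term pools, 35 in the short-term T22 pools and 136 in the short-term T127 pools. The other immune clusters together held 32968 cells, and each value in pDC was set beside the same value in these cells from the same pools. The mix of these clusters differed between the experiments, so ratios to them are not matched for cell type.

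Plasmacytoid dendritic cells are a rare lineage of the bone marrow whose identity depends on the transcription factor Tcf4 (E2-2), working with Irf8, Spib and Bcl11a. They carry the endosomal receptors Tlr7 and Tlr9 for RNA and DNA, and on stimulation they signal through Myd88 and Irf7 and secrete type I interferon from an enlarged secretory apparatus. In tumors they have been described both as sources of interferon and, in a resting state, as poorly stimulatory cells that take part in tolerance.

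T22 (LPA1-T22) and T127 (LPA1-T127) are transplantable tumors from mice transgenic for the lysophosphatidic acid receptor LPA1, and both carry wild-type BRCA1 and BRCA2. The study asked how T127, which is resistant to inhibitors of poly(ADP-ribose) polymerase, can make the sensitive T22 resistant. Tumor pieces were placed in the mammary fat pads of female FVB mice of 6 weeks of age, which then received vehicle or olaparib at 50 mg/kg per day by oral gavage. In the short-term experiments, each model was sampled after vehicle, 4 days or 8 days of olaparib, and in the long-term experiment T22 and T127 tumors grown alone or in the same mouse were sampled at 20 days. Each model is a single transplanted tumor line, so T22 and T127 stand for those lines and not for a class of tumors.

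Cells of different tumors were tagged, mixed and captured in 8 long-term pools, 4 T22 pools and 4 T127 pools. The sources used here do not say which tumors entered which pool or whether pools were captures of the same mixture. The deposited tables used here do not tie a cell to its tumor. Vehicle and olaparib were therefore not compared, pools were not treated as replicates of a condition, and each experiment counted as 1 sample, so that no p-value is given. The long-term pools were not alike, since haemoglobin in the other immune cells was 1397 to 1669 CPM in pools 1 to 4 and 4730 to 6437 CPM in pools 5 to 8. A difference between T127 and T22 cannot be told apart from a difference between their captures, and likewise a difference between the long-term and short-term pools cannot be told apart from duration, transplant setting or capture run.

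Levels are unique molecular identifiers (UMIs) summed over the cells of a group and scaled to counts per 1000000 UMIs (CPM), and log2 ratios were taken after adding 10 CPM to both groups. The pDC held 928975 UMIs in the long-term pools, 335911 in T22 and 1051667 in T127, so that 1 UMI was worth 1.08, 2.98 and 0.951 CPM in that order. The median pDC held 5370 UMIs in the long-term pools, 9087 in T22 and 7452 in T127. Intervals are 95% limits for counting error only, and a summed count of 0 allows up to 3.23, 8.93 and 2.85 CPM. Where 3 values are given in a row, they stand for the long-term, T22 and T127 pools.

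Part of the long-term pools held the same cells. A barcode shared between pools had a copy named pDC in 14 cases, all copies had that name in 13 of them, and the deeper copy held a median of 3.82 times as many UMIs. Only the deepest copy was kept, which removed 13 of the 354 deposited pDC. No pDC barcode was shared among the T22 pools or among the T127 pools.

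The markers were high in the cells named pDC, and 11 of these cells held no Siglech UMI. Siglech, a lectin-like receptor that marks mouse pDC, reached 878, 840 and 910 CPM in pDC and 2.42, 4.69 and 0.965 CPM in the other immune cells. Its level ran from 688 to 1035 CPM over the 8 long-term pools, was 579, 580, 1143 and 1094 CPM in the T22 pools and 701, 1021, 890 and 1024 CPM in the T127 pools. Every pool of pDC lay far above every pool of other immune cells, where the highest was 4.96 CPM.

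Bst2 (tetherin), a surface protein that is also induced by interferon, was at 6198, 4412 and 4711 CPM in pDC against 716, 317 and 418 CPM. Tcf4 was at 951, 1688 and 1839 CPM against 63.4, 62.8 and 116 CPM. Irf8 was at 2746, 1986 and 3580 CPM against 252, 322 and 357 CPM. All 4 markers were highest in pDC among the immune clusters of at least 20 cells, of which there were 15, 14 and 11, and the clusters that came next for Tcf4 were B cells in all 3 experiments. At least 3 of the 4 markers had a UMI in 168 of 170, 35 of 35 and 133 of 136 pDC. The authors assigned the name from Clec10a, a Siglec gene and Cd300c after clustering on many genes, so the differences between pDC and other clusters given here describe the cluster and are no test of it.

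**Figure D1:**
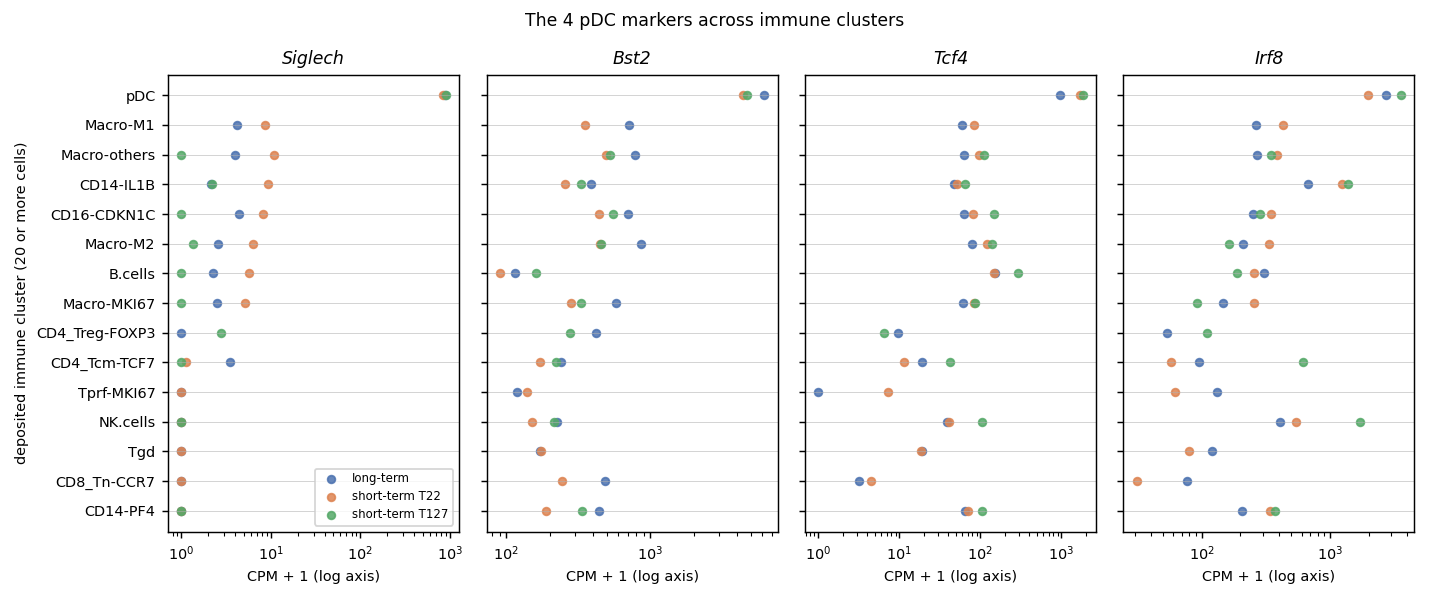
The 4 pDC markers in the immune clusters of at least 20 cells; each point is the summed level of a gene in a cluster of 1 experiment, in CPM plus 1 on a log axis, and colors mark the experiments. In every panel the points of the pDC cluster are the highest, with Siglech at 878, 840 and 910 CPM.

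A Siglech UMI was present in 165 of 170 (97.1%), 33 of 35 (94.3%) and 132 of 136 (97.1%) pDC. After each cell was thinned to 2000 UMIs, the share was 80.6% (95% binomial interval 73.7 to 86.3, 165 cells, 5 shallower cells left out) in the long-term pools and 80% (63.1 to 91.6, 35 cells) in T22. In T127 it was 87.4% (80.6 to 92.5, 135 cells). In macrophages of the Macro-M2 cluster thinned in the same way, which should lack the gene, it was 0.5%, 1.25% and 0% of 400 cells each, and these cells had held a median of 11216, 13101 and 10995 UMIs before thinning. Without thinning, a Siglech UMI was present in 34 of 670 Macro-M2, 92 of 1203 Macro-M1, 97 of 1244 Macro-others and 16 of 143 CD14-IL1B cells of T22, whose median depths were 13221, 13810, 10928 and 19489 UMIs.

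The 11 pDC without a Siglech UMI held 4.90% of all pDC UMIs, with 3.35%, 11% and 4.32% of the UMIs of the 3 experiments. They differed widely among themselves. The cells of long-term pools 1, 2 and 7 held 32, 41 and 38 Bst2 UMIs and 9, 54 and 111 UMIs of Klk1, a gene high in the other pDC. A cell of T127 pool 1 held 35077 UMIs with 543 of Ctsk, the cathepsin of osteoclasts, and 593 of Acp5, the tartrate-resistant phosphatase, and no UMI of Ccr9, Ly6c2 or Klk1. In T22, the cell of pool 1 held 188 UMIs of macrophage markers, and that of pool 2 held 288 of macrophage and 135 of endothelial markers. The cell of long-term pool 4 held 346 UMIs of Ighg1 and 342 of Jchain, which are expressed by plasma cells. These cells were kept because the rule is the deposited name, and the counts over all genes are given with and without them. Some of the lists that changed without them are given after the lists themselves.

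The frequency of pDC differed between the experiments. They made up 0.957% of immune cells in the long-term pools (95% exact interval 0.819 to 1.11), 0.277% in the T22 pools (0.193 to 0.385) and 4.68% in the T127 pools (3.94 to 5.51). The long-term pools ran from 0.537% to 1.25% with a median of 0.977%. The T22 pools were at 0.287%, 0.262%, 0.371% and 0.187%, and the T127 pools at 4.16%, 4.18%, 4.62% and 5.75%. The ranges of the 3 experiments did not overlap, with T22 lowest and T127 highest.

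The share in T127 was 16.9 times that in T22 (95% interval 11.6 to 25.2), 4.89 times that in the long-term pools, and the long-term share was 3.45 times that of T22. Immune cells were fewer in the T127 captures, with 670 to 779 per pool against 3050 to 3236 in T22. The size of the difference therefore depended on the denominator. Among all cells, pDC were 0.661%, 0.232% and 1.70%, a ratio of T127 to T22 of 7.32 (5.02 to 10.9). Per 100 T, B and NK cells there were 7.91, 0.739 and 23.8 pDC, a ratio of 32.2 (22.1 to 48.1). Without the 11 cells that lacked Siglech, the shares of immune cells were 0.929%, 0.261% and 4.55%.

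**Figure D2:**
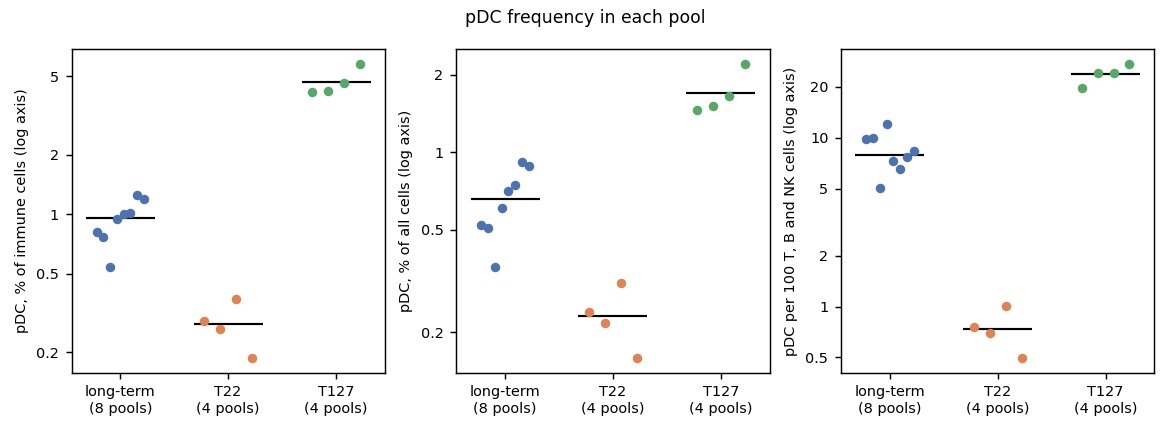
Frequency of pDC in each pool, as percent of immune cells, percent of all cells and number per 100 T, B and NK cells, all on log axes; each point is a pool and each line the value over all pools of an experiment. T22 pools lie lowest and T127 pools highest in each panel, with 0.277% and 4.68% of immune cells.

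Against the other immune cells, 218, 244 and 250 genes were at least 4-fold higher in pDC and 329, 219 and 434 at least 4-fold lower, of 7753, 8695 and 8531 genes with at least 10 UMIs in both groups together and 10 CPM in either. The share of genes that were 4-fold higher was thus 2.81%, 2.81% and 2.93%, and the share 4-fold lower 4.24%, 2.52% and 5.09%. Among pDC with a Siglech UMI, 215, 239 and 264 genes were 4-fold higher (2.74%, 2.72% and 3.11%) and 352, 348 and 489 were 4-fold lower (4.48%, 3.96% and 5.76%). A gene was highest in pDC among all immune clusters in 18.9%, 22.4% and 17.9% of cases. Of the 7211 genes measured in all 3 experiments, 136 were 4-fold higher and 89 were 4-fold lower in each of them.

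Most genes of pDC identity and surface proteins were far above the other immune cells. Of 19 such genes, 15, 14 and 17 were at least 4-fold higher, none was 4-fold lower, and the median log2 ratio was 4.91, 4.05 and 4.09, where that of all genes was 0.07, 0.03 and 0.01. Ccr9, the chemokine receptor for gut homing, was at 1159, 953 and 1767 CPM against 0.942, 2.22 and 2.52 CPM, log2 ratios of 6.74, 6.30 and 7.15. It ran from 848 to 1587 CPM in the long-term pools, was 864, 757, 1251 and 851 CPM in the T22 pools and 1624, 1523, 1788 and 2048 CPM in the T127 pools, so that T127 lay above T22 without overlap.

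Klk1, a tissue kallikrein, was at 5786, 1090 and 3752 CPM in pDC against 2.71, 0.0677 and 5.82 CPM. Its pools ran from 3392 to 6301 CPM in the long-term experiment, were 590, 1124, 1172 and 1684 CPM in T22 and 3314, 3630, 4424 and 3714 CPM in T127, and the T22 pools lay below all others. Klk1b27, a close relative with which Klk1 may share reads, was at 1057, 414 and 756 CPM against at most 1.03 CPM, and the split between these genes is uncertain. Ly6c2, shared with monocytes and memory T cells, was at 3035, 2632 and 3849 CPM against 78.3, 166 and 416 CPM. Cox6a2, a muscle-type subunit of cytochrome c oxidase, was at 1827, 959 and 992 CPM against at most 2.27 CPM, and Atp1b1, a subunit of the sodium pump, at 1777, 1441 and 2460 CPM against at most 28.4 CPM.

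Other members of the group were not peculiar to pDC. Ly6d, also a marker of early B cells, was at 2297, 3022 and 1942 CPM and came after B cells in the long-term and T127 pools, where B cells held 3069 and 2550 CPM. Lag3, an inhibitory receptor, was at 173, 68.5 and 199 CPM, and in T127 regulatory T cells were higher at 282 CPM. The inhibitory collagen receptor Lair1 was at 812, 816 and 840 CPM in pDC, and its log2 ratio was 4.09 in T127 against 1.72 and 1.87 in the others, while its level in the other immune cells was 40.0 CPM in T127 and 239 and 216 CPM in the long-term and T22 pools.

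Among the transcription factors of the lineage, Spib and Bcl11a joined Tcf4 and Irf8 above the 4-fold line in all experiments. Of the 11, 12 and 12 factors measured, 5, 6 and 4 were 4-fold higher and the median log2 ratio was 1.78, 1.71 and 1.32. Spib, an Ets factor shared with B cells, was at 219, 271 and 662 CPM against at most 2.07 CPM, and B cells came next with 103, 108 and 92.9 CPM. Bcl11a, which is also needed by B cells, was at 295, 185 and 195 CPM against at most 4.10 CPM. Xbp1, the factor of the unfolded protein response, was highest in pDC in each experiment, with log2 ratios of 2.20, 2.11 and 1.80.

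Irf7, the factor that drives interferon transcription after Tlr7 and Tlr9 signals, differed between experiments. It was at 1586, 137 and 706 CPM in pDC and 454, 100 and 300 CPM in the other immune cells, with log2 ratios of 1.78, 0.42 and 1.21. The long-term pools ran from 1034 to 2619 CPM, the T22 pools were at 87.5, 94.7, 186 and 191 CPM, and the T127 pools at 875, 722, 695 and 558 CPM. The 3 ranges did not overlap. Runx2, a factor of pDC egress from the marrow, was low throughout at 6.46, 20.8 and 10.5 CPM.

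Most factors of other lineages had ratios below 1. Of 9, 11 and 9 measured, 5, 2 and 5 were at least 4-fold lower, 0, 1 and 0 at least 4-fold higher, and 1, 3 and 1 had a ratio above 1, and the median log2 ratio was -2.38, -1.33 and -2.35. Id2, the antagonist of E proteins that favors conventional dendritic cells and innate lymphocytes, was at 37.7, 152 and 51.3 CPM against 297, 384 and 853 CPM. The T22 pools of Id2 ran from 29.3 to 405 CPM. The factor that was 4-fold higher in T22 was Irf4, which acts in plasma cells and in dendritic and T cells, at 24.8, 155 and 57.1 CPM against 5.79, 15.3 and 42.3 CPM, with 120, 107, 137 and 312 CPM in the T22 pools. Spi1 (PU.1), the myeloid factor, was at 66.7, 104 and 64.7 CPM against 550, 324 and 495 CPM, and Cebpb at 129, 113 and 145 CPM against 1045, 418 and 1857 CPM. Pax5, which commits B cells, had 0 UMIs in pDC of all 3 experiments.

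The machinery of endosomal nucleic acid sensing was only in part higher in pDC. Of 15, 17 and 17 measured genes, 1, 2 and 3 were at least 4-fold higher and 1 in each was 4-fold lower, yet 9, 8 and 9 were highest in pDC, and the median log2 ratio was 0.65, 0.42 and 0.46. Tlr7 was at 140, 119 and 214 CPM in pDC and 33.8, 22 and 22.1 CPM in the other immune cells. It ran from 38.0 to 185 CPM in the long-term pools, was 76.5, 154, 166 and 52.1 CPM in T22 and 218, 167, 208 and 249 CPM in T127, with T127 just above T22. Tlr9 was at 6.46, 5.95 and 7.61 CPM and Myd88, the adaptor of both receptors, at 1.08, 0 and 0.951 CPM in pDC, and at this depth neither could be compared.

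Ctsl, a lysosomal protease that cleaves endosomal Toll-like receptors, had the largest ratio of the sensing genes, with 4955, 1745 and 3251 CPM against 311, 60.8 and 294 CPM. Slc15a4, an endolysosomal transporter required for Tlr7 and Tlr9 signals in pDC, was at 125, 137 and 201 CPM, 3.33-fold (95% interval 2.74 to 4.00), 3.92-fold (2.87 to 5.24) and 5.83-fold (5.00 to 6.77) above the other immune cells. Pld4, an endosomal nuclease that removes nucleic acids sensed by Tlr9, was at 1397, 997 and 1475 CPM against 480, 329 and 413 CPM. The chaperone Hsp90b1 was at 4353, 1896 and 3178 CPM against 1379, 968 and 938 CPM. All 5 of Tlr7, Ctsl, Slc15a4, Pld4 and Hsp90b1 were highest in pDC in every experiment. Lgmn, the asparagine endopeptidase, and Pld3, a relative of Pld4, were lower in each, with log2 ratios of -3.21, -2.23 and -2.45 for Lgmn and -1.87, -1.81 and -0.96 for Pld3.

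Sensors outside the endosome were mostly lower or low. Of 10, 9 and 10 such genes, 1, 1 and 3 were at least 4-fold lower and the median log2 ratio was -1.25, -1.29 and -1.35. Tlr2, the receptor for bacterial lipoproteins, had log2 ratios of -3.58, -1.29 and -4.32. Tmem173 (STING), the adaptor of the cytosolic DNA sensor, was highest in pDC at 110, 101 and 127.4 CPM against 60.9, 68.7 and 76.5 CPM, whereas Cgas, which makes its ligand, was at 2.15, 0 and 0 CPM against 20.5, 33.7 and 31.1 CPM.

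Transcripts of interferon itself were at or near 0. Of 21 ligand genes of types I, II and III in the files, 19, 20 and 19 had 0 UMIs in pDC, and the rest summed to 7, 3 and 2 UMIs. The summed level was 7.54, 8.93 and 1.90 CPM in pDC and 3.16, 27.1 and 3.69 CPM in the other immune cells. The exact 95% intervals of the pDC sums, which cover counting error only, reached up to 15.5, 26.1 and 6.87 CPM.

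The receptor chain Ifnar2 was highest in pDC, at 509, 327 and 689 CPM against 208, 160 and 149 CPM. Its T22 pools were at 208, 355, 430 and 295 CPM and its T127 pools at 483, 827, 826 and 665 CPM, without overlap. Ifngr1, a chain of the interferon gamma receptor, was lowest in pDC among the clusters ranked in each experiment, at 36.6, 143 and 56.1 CPM against 384, 449 and 491 CPM. Stat2 had log2 ratios of 1.47, 1.53 and 1.13.

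Most interferon-stimulated genes were not higher in pDC than in other immune cells. Of 21, 21 and 22 measured, 1 in each experiment was 4-fold higher (Bst2), 3 in each were 4-fold lower, and 9, 5 and 7 had a ratio above 1, with a median log2 ratio of -0.47, -1.16 and -0.65. Their summed level was higher, at 13867, 6311 and 9568 CPM against 7257, 2830 and 6599 CPM, and Bst2 alone gave 6198, 4412 and 4711 CPM of it. Isg15, a ubiquitin-like modifier, was at 716, 44.7 and 253 CPM against 790, 174 and 352 CPM, and Ifitm3, a membrane protein that blocks viral entry, at 221, 158 and 127.4 CPM against 1470, 366 and 1598 CPM. Ifi44 and Trim30a were highest in pDC, with log2 ratios of 1.04, 0.72 and 1.49 for Ifi44 and 0.96, 0.79 and 0.95 for Trim30a. Trim30 and Ifit genes have close copies, so reads may be split among them.

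Ccl4, a chemokine for T and NK cells, was at 3402, 3525 and 4760 CPM in pDC and 1475, 1311 and 478 CPM in the other immune cells, and was highest in pDC in each experiment. Its pools varied widely, from 1290 to 5063 CPM in the long-term experiment, 1410, 3018, 3606 and 7482 CPM in T22 and 4775, 3063, 5382 and 5500 CPM in T127, and the 3 ranges overlapped. Of the 11, 12 and 12 cytokines and effectors measured, 0, 1 and 1 were at least 4-fold higher and 5, 6 and 6 at least 4-fold lower, and the median log2 ratio was -1.55, -2.19 and -2.23. The higher gene in T127 was Ccl4, and that in T22 was Il12a, a subunit of interleukin-12, at 38.7 CPM (13 UMIs) against 0.048 CPM, with pools of 10.9, 0, 48.9 and 122 CPM. Il1b was at 37.7, 229 and 21.9 CPM against 3196, 1384 and 2927 CPM. Ccl5 had log2 ratios of -3.12, -5.54 and -4.33 and Cxcl10 of -3.05, -2.45 and -4.24. Gzmb, a granule protease reported in human pDC, was at 3.23, 0 and 0.951 CPM against 60.0, 86.3 and 116 CPM.

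Of the tolerogenic and checkpoint genes, Cd47, the signal that restrains phagocytosis, was highest in pDC, at 1628, 1509 and 2390 CPM against 392, 435 and 659 CPM. Cd274 (PD-L1) was at 6.46, 23.8 and 14.3 CPM against 17.6, 22.7 and 48.6 CPM. Havcr2 (TIM-3) had log2 ratios of -3.21, -1.72 and -2.50, and Ido1 and Icosl did not exceed 4.31 CPM in pDC and could not be compared. The median log2 ratio over the 6, 7 and 7 genes measured was -0.99, -0.72 and -0.97.

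The presentation genes of MHC class II and class I differed in position. All but 1 of 9 class II genes were lower in pDC in each experiment, with medians of -1.54, -0.85 and -1.33, and their summed level was 9725, 8895 and 6516 CPM against 36919, 24799 and 16658 CPM. H2-Aa, a class II alpha chain, was at 2920, 2391 and 1530 CPM against 11613, 6872 and 3862 CPM. The exception was H2-Oa, a chain of the H2-O regulator found mainly in B cells, at 136, 205 and 126 CPM against 27.7, 34.5 and 21.3 CPM, where B cells held 408, 206 and 279 CPM. The costimulatory Cd83, a mark of mature dendritic cells, was at 9.69, 26.8 and 4.75 CPM against 388, 264 and 303 CPM, and Cd86 had log2 ratios of -2.44, -2.14 and -2.80.

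Class I genes were higher in pDC than in the other immune cells in the long-term and T127 pools and not in T22. Of 8, 9 and 9 genes, 6, 1 and 8 had a ratio above 1, with medians of 0.70, -0.28 and 0.52, and summed levels of 17139, 9062 and 17013 CPM against 11190, 10942 and 11743 CPM. H2-K1, a classical class I heavy chain, was at 4608, 2015 and 4015 CPM against 2232, 2095 and 2099 CPM, ratios of 2.06 (95% interval 2.00 to 2.13), 0.962 (0.891 to 1.04) and 1.91 (1.85 to 1.97). The exception in T22 was Tapbp, the tapasin of the peptide-loading complex, which was highest in pDC in all experiments at 268, 280 and 396 CPM.

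**Figure D3:**
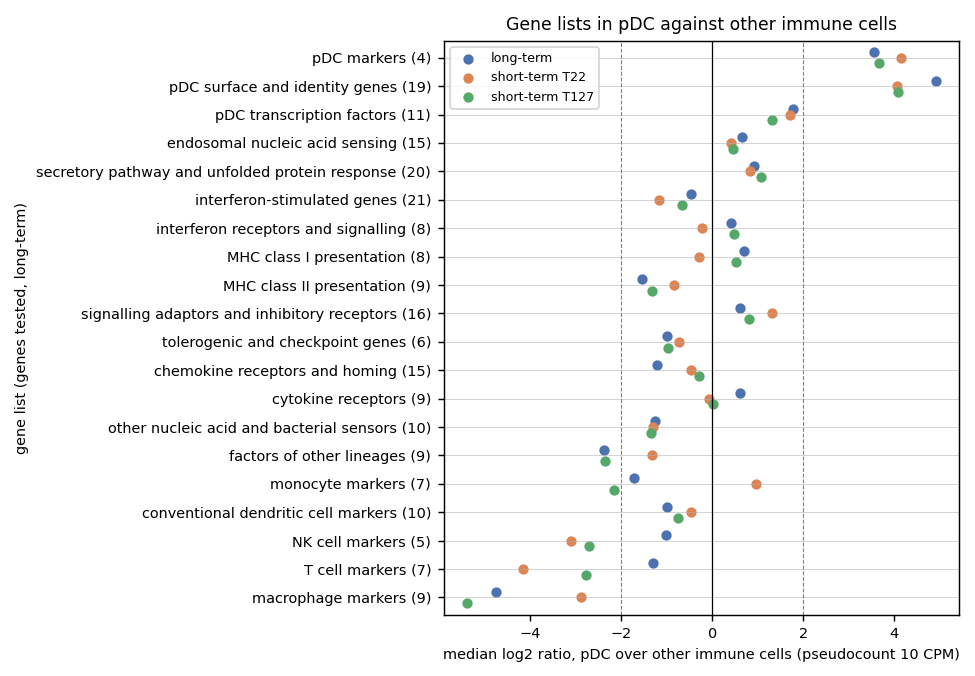
Median log2 ratio of pDC over the other immune cells for 20 gene lists, with a point for each experiment; dashed lines mark 4-fold. Surface and identity genes lie at 4.91, 4.05 and 4.09, macrophage markers at -4.74, -2.87 (-4.47 without the T22 cells lacking Siglech) and -5.38, and MHC class I genes lie above 0 in the long-term and T127 pools and at -0.28 in T22.

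Homing receptors were divided. Of 15 genes, 4, 2 and 4 were 4-fold higher and 3, 1 and 3 were 4-fold lower, with a median log2 ratio of -1.20, -0.47 and -0.28. Cxcr3, the receptor for interferon-induced chemokines, was at 179, 71.4 and 131 CPM against 6.84, 27.7 and 7.75 CPM, and in T22 came after naive CD8 T cells with 101 CPM. Selplg, the ligand of P-selectin, was highest in pDC at 506, 488 and 693 CPM against 110, 235 and 141 CPM. Cx3cr1, the fractalkine receptor of monocytes, was at 1.08, 14.9 and 0.951 CPM against 205, 279 and 62.1 CPM.

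Cytokine receptors were divided as well, with 1, 2 and 3 of 9, 9 and 10 genes at least 4-fold higher, 2, 1 and 2 at least 4-fold lower and medians of 0.61, -0.06 and 0.01. Flt3, the receptor for the growth factor that dendritic cells depend on, was highest in pDC at 74.3, 158 and 168 CPM against 2.37, 13.5 and 12.1 CPM. The receptor chain Csf2rb2 was also highest in pDC, with log2 ratios of 1.44, 2.77 and 2.02. Csf1r, on which macrophages depend, was at 9.69, 137 and 39.9 CPM against 516, 656 and 471 CPM. The T22 value rested on pools that ran from 0 to 320 CPM, and both T22 cells without Siglech carried macrophage markers.

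Signalling adaptors of activating and inhibitory receptors held 4, 4 and 5 members that were 4-fold higher and 3, 1 and 3 that were 4-fold lower, of 16, 15 and 16. Tyrobp (DAP12), through which Siglech signals, was at 9098, 6442 and 7274 CPM against 4350, 2570 and 2498 CPM and was highest in pDC each time. Ptprs, an inhibitory phosphatase receptor of pDC, had log2 ratios of 2.70, 2.83 and 2.72. Fcer1g, a related adaptor, was lower, at -1.66, -1.28 and -1.46.

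The secretory pathway was higher almost throughout. Of 20 genes of translocation, folding and the unfolded protein response, 19, 18 and 19 had a ratio above 1 and 17, 13 and 18 were highest in pDC, while 3, 2 and 3 exceeded 4-fold, and the median log2 ratio was 0.91, 0.82 and 1.07. Nucb2, a calcium-binding protein of the Golgi, was at 729, 578 and 703 CPM against 83.3, 55.5 and 74.9 CPM, and Serp1, a stabilizer of the translocon, at 1047, 982 and 1578 CPM against 244, 244 and 378 CPM. Calr, the chaperone calreticulin, had log2 ratios of -0.65, -0.26 and -0.11.

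Some transcripts of the lymphoid program were high in pDC and others were at or near 0. Ighm, the mu heavy chain, was at 1179, 1286 and 1574 CPM against 113, 154 and 54.9 CPM, and came after B cells in each experiment. Iglc3, a lambda constant region, was highest in pDC at 1379, 801 and 908 CPM against at most 6.86 CPM, with B cells at 995, 319 and 414 CPM. Iglc1, Iglc2 and Iglc3 are related to differing degrees, and the split of reads among them was not tested. Dntt, the terminal transferase of V(D)J recombination, was at 210, 110 and 255 CPM against at most 0.448 CPM, with 43.7, 82.8, 147 and 191 CPM in the T22 pools and 185, 370, 229 and 252 CPM in those of T127. The kappa constant region Igkc had 1 UMI in the long-term pDC and 0 in T22 and T127, and Rag1 had 0 UMIs in all. The B cell markers summed to 93.7, 32.7 and 48.5 CPM in pDC against 61.2, 23 and 36.8 CPM in the other immune cells.

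The 20 further genes highest in pDC in all 3 experiments with the largest long-term ratios were led by Klk1b27. Ldhb, the B chain of lactate dehydrogenase, was at 672, 176 and 468 CPM against 7.93, 5.34 and 9.48 CPM, and Lefty1, a secreted antagonist of Nodal signals, at 349, 182 and 329 CPM against at most 3.69 CPM. Kmo, an enzyme of tryptophan breakdown along the kynurenine route, was at 305, 307 and 336 CPM against 6.74, 9.90 and 31.4 CPM. Slpi, a secreted inhibitor of leukocyte proteases, was at 3446, 503 and 2191 CPM against 138, 17.0 and 117 CPM, and its long-term pools ran from 922 to 12344 CPM, with 1132 UMIs in 1 cell. Fcrla, an intracellular Fc receptor-like protein of B cells, was at 388, 375 and 552 CPM against 18.3, 0.842 and 69.5 CPM. The remaining genes by this rule were Upb1, Smim5, Pir, Atp2a1, Cd59a, Paqr5, Sh3bgr, Hs3st1, Eldr, Tsc22d1, Rab33b, Prr5, Gm5547 and Sla2.

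The 15 genes furthest below the other immune cells by the rule included many that macrophages express. C1qa, a chain of complement C1q, was at 75.4, 262 and 19.0 CPM against 8208, 3897 and 3090 CPM, and Lyz2 (lysozyme) at 98.0, 450 and 140 CPM against 7275, 4243 and 12493 CPM. Of 9 macrophage markers, 8, 7 and 8 were 4-fold lower, and their sum was 865, 1831 and 733 CPM in pDC against 27275, 14387 and 20249 CPM. The 2 T22 cells without Siglech held 188 and 288 of the T22 UMIs of this list, and without them the T22 sum was 465 CPM and 8 of 9 markers were 4-fold lower. Monocyte markers were divided, with 2 of 7 at least 4-fold higher in each experiment (Ly6c2 and Plac8) and 3, 0 and 4 at least 4-fold lower, and their sum was 8504, 7038 and 11302 CPM in pDC against 3115, 2064 and 7005 CPM. Cd14, a coreceptor for bacterial lipopolysaccharide, had log2 ratios of -4.27, -1.27 and -4.89, and its T22 pools held 164, 817, 19.5 and 69.4 CPM, with 69 of 90 UMIs in pool 2. Ccr2, the receptor that draws monocytes from the marrow, had log2 ratios of 1.58, 0.96 and 0.27. The set also held C1qb, C1qc, Ms4a7, Aif1, Cxcl16, Gatm, Lst1, Selenop, Tmem176a, Ccl12, Il1b and Cxcl2. The complement receptor C5ar1 was at 6.46, 35.7 and 1.90 CPM in pDC against 162, 51.9 and 139 CPM, and 10 of its 12 T22 UMIs lay in pool 2 (118 CPM, against 0 to 21.9 CPM in the others). C3ar1 was at 19.4, 68.5 and 3.80 CPM against 281, 182 and 259 CPM, with 109, 142, 9.77 and 0 CPM in the T22 pools. Parp1, the target of olaparib, was at 49.5, 89.3 and 44.7 CPM against 43.8, 71.5 and 53.6 CPM.

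Cell cycle genes were low in pDC. Of 8 genes, 4, 4 and 5 were at least 4-fold lower, with medians of -1.89, -2.22 and -2.47, and the sum was 39.8, 74.4 and 73.2 CPM against 465, 1035 and 743 CPM.

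Markers of other lineages differed from list to list. Of T cell markers, 0, 6 and 5 of 7 were at least 4-fold lower and 1 in each was 4-fold higher. This was Cd8a, which mouse pDC can carry, at 100, 292 and 61.8 CPM against 5.90, 34.2 and 6.10 CPM. The neutrophil markers summed to 14.0, 0 and 2.85 CPM, and plasma cell markers to 392, 176 and 53.2 CPM against 45.7, 45.0 and 60.0 CPM. Of 10, 13 and 12 conventional dendritic cell markers measured, 2, 2 and 1 were at least 4-fold higher and 2, 1 and 3 at least 4-fold lower, with medians of -0.99, -0.47 and -0.76 and sums of 336, 685 and 530 CPM against 458, 553 and 919 CPM. The higher genes were Flt3 in each experiment and, in the long-term and T22 pools, the lectin Cd209a. Endothelial markers were higher, at least 4-fold in 2 of 3, 4 of 4 and 2 of 3 measured, with sums of 199, 676 and 332 CPM against 15.7, 22.6 and 37.2 CPM. Cdh5, the adhesion molecule of endothelial junctions, was at 62.4, 196 and 165 CPM against 1.01, 0.813 and 2.07 CPM and was found in pDC of every pool, from 38.0 to 76.6 CPM in the long-term pools, at 76.5, 237, 283 and 174 CPM in T22 and at 199, 185, 157 and 126 CPM in T127. Kdr, the receptor for vascular endothelial growth factor, was at 39.8, 179 and 66.6 CPM against 3.28, 2.63 and 7.48 CPM, and T22 pool 2 held 521 CPM. Pecam1, which leukocytes also carry, was at 93.7, 146 and 99.8 CPM against 9.79, 18.1 and 26.5 CPM. Plvap, another endothelial gene, was at 3.23, 155 and 0.951 CPM, and 98.1% of its T22 UMIs came from 1 cell. Whether endothelial RNA contributed to these levels was not tested.

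Leaving out the 11 pDC without Siglech changed lists in all 3 experiments. In T22, 348 genes (3.96%) were then at least 4-fold lower than in the other immune cells, and the median log2 ratio of macrophage markers became -4.47 and that of monocyte markers -0.48, with 2 of 6 at least 4-fold lower. The endothelial sum in T22 became 308 CPM, with 2 of 3 genes 4-fold higher. The factors of other lineages summed to 792 CPM in T22 with these cells and 492 CPM without them, and 4 of 11 were then 4-fold lower. In T22, 16 of 19 surface and identity genes were then 4-fold higher. The T22 class II median became -1.10, with 1 of 9 genes 4-fold lower, and the class I median -0.18, with 2 of 9 above 1. Of 21 interferon-stimulated genes, 4 were then 4-fold lower in the long-term pools and 4 in T22. Other lists changed as well, and not all of these changes are given. In T127 the median log2 ratio of conventional dendritic cell markers became -1.77, that of monocyte markers moved from -2.16 to -3.01 and that of macrophage markers from -5.38 to -6.01, with the same counts of genes 4-fold higher and lower. In the long-term pools, the plasma cell markers came to a sum of 17.8 CPM, and 3 of 5 immunoglobulin and lymphoid genes were 4-fold higher in place of 4.

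As a whole profile, pDC were most like B cells among the immune clusters, with a Spearman correlation across genes of 0.736, 0.714 and 0.685. The CD4_Tcm-TCF7 cluster of T cells came next in the long-term pools (0.703), the CD14-IL1B and CD14-PF4 clusters, with equal values, in T22 (0.711), and CD14-IL1B in T127 (0.658). The log2 ratios of pDC over other immune cells had a Spearman correlation across genes of 0.852 between the long-term and T127 pools, 0.694 between long-term and T22 and 0.702 between T22 and T127. Of the 25 genes of the authors' own pDC list, chosen on these cells and so no independent evidence, 22, 19 and 19 were at least 4-fold higher. Genes are not independent replicates, and these values are given as a description.

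The pDC of T127 and T22 were compared next. The other immune cells set beside them differed in mix, with 1174 Macro-M2 cells of 2772 in T127 and 670 of 12597 in T22. CD16-CDKN1C cells were 402 in T127 and 4205 in T22. Ratios of T127 to T22 in the other immune cells are thus not matched for cell type. Over all pDC, 23 of 7888 genes (0.292%) were at least 4-fold higher in T127 and 86 (1.09%) at least 4-fold lower, and the median log2 ratio of all genes was 0.04. Without the cells that held no Siglech UMI, 18 of 7619 (0.236%) were higher and 20 (0.263%) lower, with a median of 0.06. Leaving out these cells, 2 in T22 and 4 in T127, thus took away most of the genes that were higher in T22.

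Single cells accounted for most of the genes with the largest ratios. In T127, a single cell held 543 of 549 Ctsk UMIs (log2 ratio 5.73), 116 of 116 of Atp6v0d2 (3.59), 60 of 61 of Mmp9 (2.77) and 593 of 627 of Acp5 (2.61). In T22, the richest cell for each gene held 191 of 192 Igfbp7 UMIs (-5.50), 177 of 212 of Sparc (-5.04), all 70 of Cxcl12 (-4.45), all 61 of Sparcl1 (-4.13), 102 of 105 of Cxcl2 (-3.98) and 51 of 52 of Plvap (-3.91). Col4a1, Col4a2, Igfbp3 and Igfbp5 followed in T22, with 72%, 69.5%, 70.2% and 77.5% of their UMIs in 1 cell. Without the cells that lacked Siglech, the log2 ratio was -0.04 for Igfbp7, -1.82 for Sparc and -3.70 for Igfbp5.

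The MHC class I genes were higher in the pDC of T127, all 9 of 9, with a median log2 ratio of 0.97, and 0.92 among pDC with a Siglech UMI. The median of the same genes in the other immune cells was 0.05, and of all genes 54.6% had a ratio above 1 among pDC with a Siglech UMI. H2-K1 was at 1640, 1396, 2111 and 3350 CPM in the T22 pools and 3709, 3930, 4390 and 4057 CPM in those of T127. H2-D1, another classical class I heavy chain, was at 3160, 2734, 2765 and 4149 CPM in T22 and 6229, 5844, 7038 and 6108 CPM in T127. B2m, the light chain, was at 2296, 2402, 2746 and 3871 CPM in T22 and 4432, 4586, 4441 and 4385 CPM in T127. Each T127 pool lay above each T22 pool for these 3 genes, and T22 pool 4, with 6 pDC, was the highest of T22.

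Among pDC with a Siglech UMI, the ratio of T127 to T22 was 1.96 (95% interval 1.80 to 2.13) for H2-K1, 2.12 (1.98 to 2.27) for H2-D1 and 1.66 (1.54 to 1.79) for B2m, where the log2 ratios in the other immune cells were 0.00, 0.38 and -0.14. The immunoproteasome subunits Psmb8 and Psmb9 were 1.91-fold (1.64 to 2.23) and 1.82-fold (1.42 to 2.37) higher. Tap2, a chain of the peptide transporter, was 1.88-fold (1.18 to 3.14) higher, and Tapbp 1.37-fold (1.09 to 1.74). The pools of 7 of the 9 genes did not overlap, where 10.7% of all genes had pools apart, and the pools of Tap1 and Nlrc5 overlapped.

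Interferon-stimulated genes were also higher in T127 pDC. Of 17 genes measured among pDC with a Siglech UMI, 16 had a ratio above 1 (54.6% of all genes), with a median log2 ratio of 1.31. Of these 17, 12 were 2-fold higher (4.42% of all genes) and 4 were 4-fold higher (0.236%). The pools of 5 did not overlap, where 10.7% of all genes had pools apart. Over all pDC, 17 of 18 had a ratio above 1, with a median of 1.25. In the other immune cells the same genes had a median of 0.89, and 13 of the 17 ratios were larger in pDC. Irf7 was at 734 CPM in T127 against 154 CPM in T22, 4.77-fold (3.54 to 6.58), with a log2 ratio of 2.18 in pDC and 1.5 in the other immune cells. Usp18, the protease that removes Isg15 from proteins, was at 70.6 CPM (71 UMIs) against 3.34 CPM (1 UMI), a ratio of 21.1 (3.67 to 845). Isg15 was at 259 against 50.2 CPM, but its T22 pools ran from 0 to 226 CPM and overlapped those of T127, which began at 175 CPM.

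**Figure D4:**
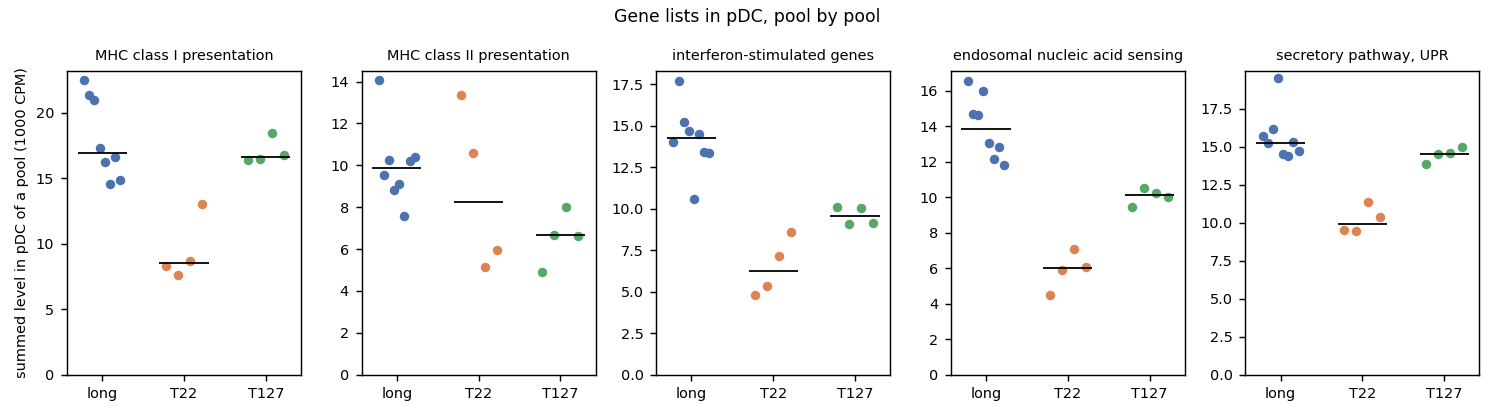
Summed level of 5 gene lists in pDC of each pool, in CPM divided by 1000; each point is a pool and each line the median of an experiment. For MHC class I genes the T22 pools (7609 to 13020 CPM) lie below all T127 pools (16414 to 18441 CPM), and for MHC class II genes the ranges overlap.

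MHC class II genes did not share this difference in the summed counts, and in T22 these leaned on few cells. Among T22 pDC with a Siglech UMI, the richest cell held 31.8% of H2-Aa, 31.8% of H2-Ab1 and 25.2% of Cd74 UMIs. The richest T127 cell held 4.66%, 3.65% and 2.55%. How the ratios stand without the richest T22 cell was not tested. The class II sum was 13361, 10580, 5169 and 5954 CPM in the T22 pools and ran from 4926 to 8030 CPM in T127, so the ranges overlapped. Of 9 genes, 0 had a ratio above 1 over all pDC (median log2 ratio -0.42) and 2 among pDC with a Siglech UMI (-0.09), while the other immune cells had a median of -0.28. Among pDC with a Siglech UMI, the secretory genes had a ratio above 1 in 18 of 20 cases, against 54.6% of all genes. Their median was 0.39 against 0.15 in the other immune cells, and 8 had pools apart, where 10.7% of all genes did. The sensing genes had a ratio above 1 in 12 of 16 cases, against 54.6% of all genes, with a median of 0.47 against 0.12, and Tlr7 was 1.86-fold (1.30 to 2.72) higher in T127.

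Of the 19 surface and identity genes, 16 had a ratio above 1 over all pDC (median log2 ratio 0.30) and 12 among pDC with a Siglech UMI (0.20). Among the latter, 7 had pools apart. Of all genes there, 54.6% had a ratio above 1 and 10.7% had pools apart. The authors' pDC list, no independent evidence, had 24 of 25 genes above 1 over all pDC (median 0.55) and 21 of 25 among pDC with a Siglech UMI (0.44), where the other immune cells had a median of 0.39. The 4 markers had a median of 0.12 over all pDC, with 4 of 4 above 1, and 0.04 among pDC with a Siglech UMI, with 3 above 1. Among the latter, Siglech, Bst2 and Tcf4 were at log2 ratios of 0.01, -0.01 and 0.06. These cells were chosen by Siglech itself, so its ratio there is not independent of the choice. Irf8 was 1.69-fold (1.56 to 1.84) and Spib 2.27-fold (1.82 to 2.86) higher in T127, with log2 ratios of 0.14 and 0.12 in the other immune cells. Ccr9 was 1.73-fold (1.53 to 1.95) and Klk1 3.2-fold (2.87 to 3.57) higher. For these 4 genes, too, the pools did not overlap. Cd4, which mouse pDC can express, was at 76.5, 23.7, 48.9 and 17.4 CPM in the T22 pools and 269, 264, 301 and 271 CPM in T127, 5.75-fold (3.43 to 10.4) higher among pDC with a Siglech UMI where the other immune cells had a log2 ratio of -0.18. Lag3 was 2.67-fold (1.73 to 4.31) higher. Cd209d, a C-type lectin, and Ly6d were lower in T127, with log2 ratios of -1.20 and -0.74, and their pools overlapped.

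**Figure D5:**
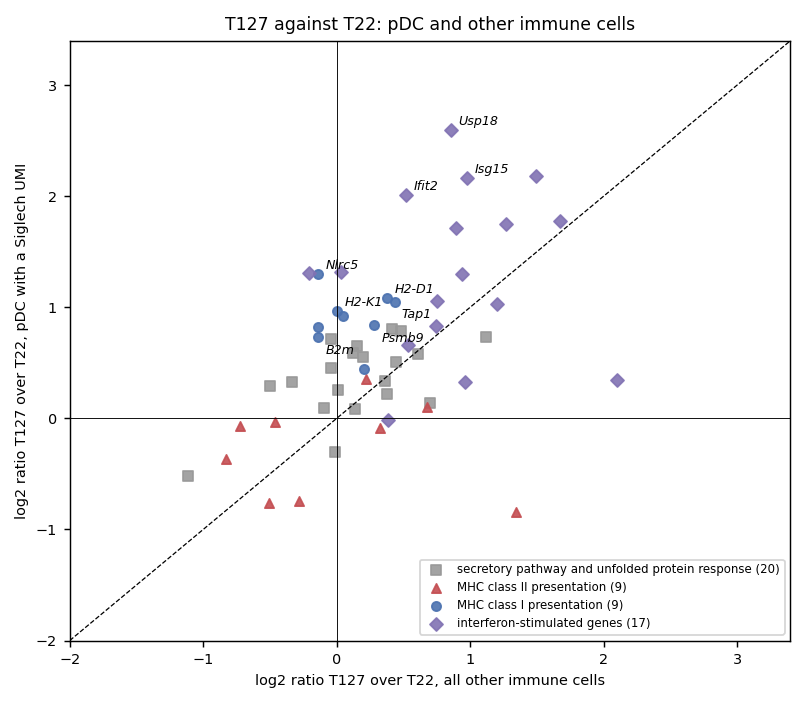
Log2 ratio of T127 over T22 in pDC with a Siglech UMI (vertical axis) and in all other immune cells (horizontal axis); each point is a gene of 4 lists and the dashed line marks equal ratios. All 9 MHC class I genes and 13 of 17 interferon-stimulated genes lie above the line.

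When the rule for the largest differences was applied again to pDC with a Siglech UMI, a choice made after the data were seen, 11 genes were higher in T127 and 7 were lower. The lambda constant region Iglc2 was at 717 against 46.8 CPM and had a UMI in 67 T127 pDC, while its T22 pools ran from 0 to 243 CPM. Iglc1 was lower in level, at 123 against 6.69 CPM. Whether reads of these genes are shared with Iglc3, whose own log2 ratio was 0.08, was not tested. Abcg1, a cholesterol exporter, was at 152 against 3.34 CPM (1 UMI), and Hsd11b1, which regenerates active glucocorticoid, at 171 against 23.4 CPM. Trim30d had 91 UMIs in T127 and 0 in T22 (lower 95% limit of the ratio 7.18), with a log2 ratio of 2.00 in the other immune cells. Dcn had 41 and 0 UMIs (lower 95% limit 3.16). H2-Q7, a nonclassical class I gene with close copies, was at 472 against 97.0 CPM. Usp18, Cd4, Isg15 and Ifit2 were also among the 11.

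Of the 7 lower genes, Mt1 (metallothionein) was at 6.96 CPM in T127 against 134 CPM in T22, and Hmgcs1, an enzyme of cholesterol synthesis, at 25.8 against 144 CPM. The stress-induced Atf3 was at 11.9 against 83.6 CPM and the chaperone Hspa1b at 14.9 against 107 CPM. For H2-M2, Jchain and Id2, the T22 cell richest in each held 100%, 97.1% and 81.0% of the UMIs.

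The pDC of the long-term pools were then set against those of both short-term experiments together. Over all pDC, 8 of 7749 genes (0.103%) were at least 4-fold higher in the long-term pools and 30 (0.387%) at least 4-fold lower, and the median of all genes was -0.22. The short-term mix differed between cell types, since it held 335911 UMIs of T22 and 1051667 of T127 for pDC but 103342216 of T22 and 29016611 of T127 for the other immune cells, so ratios in pDC and in the other immune cells are not matched for experiment. Without the cells that held no Siglech UMI there were 5 (0.0663%) and 22 (0.292%) of 7543, and the median was -0.18. Scaling by median-of-ratios size factors brought the median to -0.00 and the number of lower genes to 17, so that 39.3% of the called genes were higher against 21.1% with CPM.

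The higher genes were led by haemoglobin. Hba-a1, Hbb-bs and Hbb-bt had log2 ratios of 7.23, 7.09 and 5.02. A haemoglobin UMI was present in 170 of 170 long-term, 0 of 35 T22 and 19 of 136 T127 pDC. The summed level was 1648 to 8562 CPM over the long-term pools of pDC and 1397 to 6437 CPM in the other immune cells of the same pools. It was higher in pDC in each of the 8 pools. In each pool the median pDC was also shallower, at 4693.5 to 6194.5 UMIs against 7416 to 9168.5. Whether depth contributed to the difference in haemoglobin was not tested. Of the other 5 genes, Ighg1 (346 of 350 UMIs), Jchain (342 of 350), Iglv1 (109 of 112) and F10 (all 32) came from single cells, and Xcl1 had 55.3% of its 94 UMIs in 1 cell.

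Several of the lower genes were spread over many cells. Nr4a3, an immediate-early nuclear receptor, was at 6.46 CPM in the long-term pDC against 193 CPM in the short-term pDC and had a UMI in 59 T127 and 17 T22 cells. Its log2 ratio was -3.63, and -2.60 in the other immune cells. Bcl2l11 (BIM), a trigger of apoptosis, was at -2.81 in pDC and -1.38 in the other immune cells, and the chemokine receptor Cxcr4 at -2.56 and -1.5. The other 7 genes at the top of this list (Ctsk, Atp6v0d2, Acp5, Col4a1, Igfbp7, Cxcl12 and Col4a2) had most of their UMIs in 1 short-term cell each. Among pDC with a Siglech UMI, a repeat of the rule chosen after the data were seen named 16 lower genes. They included Runx3 (104 against 446 CPM), Lrp8 (50.1 against 274 CPM), Grasp (54.6 against 285 CPM), Sec61a1 (39.0 against 190 CPM) and Klf4 (16.7 against 103 CPM).

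Interferon-stimulated genes mostly had higher levels in the long-term pDC. Among 21 genes, 18 had a ratio above 1 with a median log2 ratio of 0.81, and 16 of 20 with a median of 0.86 among pDC with a Siglech UMI. The same genes had medians of 0.98 and 0.95 in the other immune cells, and 7 of the 20 ratios were larger in pDC. Irf7 had a log2 ratio of 1.47 in pDC, and 1.39 in those with a Siglech UMI. Its level was 1586, 137 and 706 CPM in the long-term, T22 and T127 pDC and 454, 100 and 300 CPM in the other immune cells. Isg15 had log2 ratios of 1.77 and 1.60, and its level was 716, 44.7 and 253 CPM in pDC and 790, 174 and 352 CPM in the other immune cells. For both genes the long-term level was the highest of the 3 in pDC and in the other immune cells. The pools of 2 of the 20 genes measured among pDC with a Siglech UMI did not overlap, where 3.2% of all genes had pools apart. Of 9 class I genes, 4 had a ratio above 1, with a median of -0.43 over all pDC and -0.45 among those with a Siglech UMI. The same genes had a median of -0.39 in the other immune cells. The class I sum was 17139, 9062 and 17013 CPM in long-term, T22 and T127 pDC. The intervals of the long-term sum (16874 to 17408 CPM) and the T127 sum (16765 to 17264 CPM) overlapped. Of all genes, 38% had a ratio above 1 among pDC with a Siglech UMI.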

How the data were processed

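Single-cell libraries of mixed, tagged tumors were aligned by the authors with Cell Ranger 6.0.0 to the mouse genome, introns included, and filtered by them for cells with few genes or more than 20% mitochondrial counts and for doublets before Leiden clustering. The deposited matrices hold raw UMI counts for 32285 genes, and cluster names come from the deposited metadata. The labels give the organism as human, but the genes are those of mouse.

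Counts of kept cells were summed per cluster and scaled to CPM with pandas 2.3.3 and scipy 1.17.1, based on numpy 2.4.6, in Python 3.11.15, and plotted with matplotlib 3.10.9. Cells sharing a 16-base barcode between long-term pools were reduced to the deepest copy, and no further doublet removal was made. Immune cells were all clusters but malignant cells, fibroblasts and endothelium. Genes needed 10 UMIs in both groups together and 10 CPM in either, and a 4-fold ratio after adding 10 CPM counted as called. Intervals are exact Poisson, Clopper-Pearson or conditional binomial limits at 95%. Cells were thinned at random to 2000 UMIs for detection shares. Scripts were tested on simulated counts.

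Named genes were the listed genes, up to 20 further genes with at least 50 CPM that were highest in pDC in all experiments, the 15 lowest of those with at least 200 CPM in other immune cells, and up to 10 each way per contrast with at least 20 UMIs, a 4-fold ratio and a log2 ratio at least 1 away from that of other immune cells. The members and lists were chosen with earlier results of these data known. The authors' list of 25 pDC genes was chosen on these cells and is no independent evidence. Depth of the deposited pools ran from 34755906 to 55600377 UMIs. The alternatives tried were other pseudocounts, scalings, filters and denominators, thinning, each pool left out in turn, and, added after the data were seen, the removal of pDC without a Siglech UMI. Some of the listed genes are not reported here.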

Additional observations from a re-analysis of the deposited data

Results flagged for a closer look

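Of 42 groups of pools examined, 5 held a pool far from the others. By the nominal rate of the rule, chance alone flags about 1 in 20 such groups, and this rate was not measured here. The rule counted long-term pools 1 and 2 apart, although they shared cells before the deepest copies were kept. In the long-term pools, the lowest Bst2 level in pDC was 3119 CPM, where the next was 5632 CPM and the median 6557 CPM. The highest long-term sum of MHC class II genes was 14066 CPM, where the next was 10420 CPM. The highest sum of secretory genes was 19493 CPM, in pool 4, where the next was 16176 CPM. Plasma cell markers reached 3266 CPM in the same pool, against 47.7 CPM in the next, and this pool holds the pDC with 346 Ighg1 and 342 Jchain UMIs. In T127, the lowest sum of endothelial markers was 277 CPM, where the next was 347 CPM.

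For 6 genes, pDC lay above the other immune cells in every pool of an experiment and below them in every pool of another, and the difference was not tested. B2m had a log2 ratio of pDC over other immune cells of 0.27 in T127 and -0.57 in T22. Psmb9 was at 0.75 in the long-term pools and 0.35 in T127 against -0.29 in T22. Tap2 was at 0.55 in T127 and -0.26 in T22, and Ptprc (CD45) at 1.04 and -0.10. The reverse held for Tgfb1, with 0.25 in T22 and -0.39 in T127, and for the transcription factor Zeb2, with 0.53 and -0.68.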

How the results depend on the processing

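No paired analysis was possible because the pools of different experiments share only a number and no result comes from a test. Counts were limited by 341 pDC, of which 35 were from T22, and values of a few CPM rest on single UMIs.

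The pDC share depended on its denominator: 0.661% (long-term) and 1.70% (T127) of all cells, and 7.91, 0.739 and 23.8 per 100 lymphocytes. With 1 CPM in place of 10 added, 460, 549 and 500 genes were 4-fold higher than in other immune cells and 840, 735 and 958 lower. For T127 over T22 it gave 163 and 198 genes, and for long-term over short-term 47 and 252. Without pDC lacking Siglech, 348 genes were lower than in other immune cells in T22, 20 lower in T127 than T22, and 5 higher in the long-term pools. A mean over cells gave 15 higher and 46 lower for T127 over T22, and median-of-ratios scaling 17 lower for long-term over short-term. Siglech was detected in 97.1%, 94.3% and 97.1% of pDC without thinning, and in 60% (long-term) and 61.8% (T127) at 1000 UMIs.

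Leaving out each pool in turn gave shares of immune cells of 0.912 to 1.01%, 0.245 to 0.308% and 4.33 to 4.86%. The long-term counts were 211 to 221 higher and 325 to 348 lower, those of T22 221 to 266 and 198 to 296, and those of T127 248 to 257 and 427 to 482. T127 over T22 gave 15 (without T127 pool 1) to 31 higher and 48 (without T22 pool 2) to 119 lower, and long-term over short-term 6 to 10 and 26 to 38.

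Some genes changed sign. Without pDC lacking Siglech, log2 ratios of T127 over T22 were -0.38 for Acp5, 0.14 for Sparcl1 and 0.063 for Cxcl2. For long-term over short-term they were -1.35 for Jchain, -0.11 for F10, 0.16 for Col4a1, 0.29 for Atp6v0d2, 0.84 for Igfbp7 and 0.80 for Acp5. With each pool left out in turn, T127 over T22 ran from -4.63 to 0.13 for Sparcl1 and -4.41 to 0.13 for Plvap, highest without T22 pool 2, and from -1.16 (without T127 pool 1) to 3.39 for Acp5. Long-term over short-term ran from -3.05 to 0.81 (without T22 pool 2) for Igfbp7. Without T127 pool 1 it was highest for Ctsk (-5.19 to 0.075), Atp6v0d2 (-3.16 to 0.40) and Acp5 (-2.92 to 0.41). Jchain ran from -1.22 (without long-term pool 4) to 4.06 and F10 from -0.10 (without long-term pool 6) to 2.27. Single genes were rerun only for the 4 markers and the genes named by their ratios in these data, which favors stable values. Other genes, such as those of MHC class I, were not rerun. Of the values rerun, 2266 stayed on the same side of 4-fold, 41 fell below it and 6 rose past it. Another 18, of genes called 4-fold, changed sign.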

Other observations

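The pDC varied among themselves in a few genes, chosen here after their values were seen. The ratio of the observed variance of UMIs between cells to that of counting alone was taken over the 165, 33 and 132 pDC with a Siglech UMI. Its median was 1.18, 1.30 and 1.24 in the long-term, T22 and T127 pools, over 1471, 1629 and 1702 genes of sufficient level and detection. For Ccl4 it was 57.6, 158 and 44.8, for Ly6d 32.4, 24.2 and 31.1, and for Ly6c2 8.62, 18 and 14. Ccl4 had 0 UMIs in 75 of 170, 11 of 35 and 22 of 136 pDC and 10 or more in 58, 14 and 88. Ly6d had 0 UMIs in 53, 5 and 40 pDC and 10 or more in 59, 26 and 60. Iglc2 was absent from 74 of 170, 32 of 35 and 69 of 136 pDC and had 10 or more UMIs in 44, 0 and 31, while Iglc3 was absent from 16, 5 and 16. H2-Aa had 0 UMIs in 8, 5 and 27 pDC and 10 or more in 111, 19 and 67. Cells shared a capture, and deeper cells hold more UMIs of every gene.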
